A study of Mus musculus with 28 samples.

Results

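The genes described here are 33 genes of fatty acid oxidation and ketone body metabolism, of 21935 genes in the table of counts. They were listed by role, with earlier results of these data known, and all 33 were among the 12580 genes with enough counts to be tested. RNA was sequenced from the livers of 28 male mice of the strain B6.V-Lepob/JRj, an obese strain that makes no functional leptin. All mice were obtained at 5 weeks of age and were kept on the AMLN diet (40% fat, 20% fructose, and 2% cholesterol) during 14 weeks before treatment and through it. Treatment was oral, once daily, for 2 weeks: 10 mice had vehicle (carboxymethylcellulose), 9 mice had obeticholic acid (OCA), and 9 mice had INT-787, each drug at 30 mg/kg. All 3 groups therefore shared leptin deficiency and diet, and the vehicle mice were obese animals with a diet-loaded liver, not healthy mice. OCA and INT-787 are modified bile acids that activate the farnesoid X receptor (FXR), and INT-787 is OCA with an added hydroxyl group.

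Long-chain fatty acids are joined to coenzyme A, carried across the mitochondrial membranes as carnitine esters, and shortened in repeated rounds of oxidation, and the liver turns much of the product into ketone bodies during fasting. Very long chains are first shortened in peroxisomes by a separate set of enzymes. Many genes of both routes are switched on by PPAR-alpha, a nuclear receptor for fatty acids, which with its partner RXR binds a pair of short half-sites in the same orientation, whereas FXR with RXR binds a pair in opposite orientation.

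The total count of a mouse lay between 1009593 and 22421506, with group medians of 12901575 for vehicle, 16017276 for OCA, and 14777433 for INT-787. Values are in CPM, that is counts scaled to a common library total with TMM factors. The lowest count of any of the 33 genes in any mouse was 5, for *Pdk4* in vehicle replicate 6, the library with the lowest total. The liver label held, since *Alb* (albumin) was at 74111 CPM on average in vehicle mice and *Hnf4a* (a hepatocyte transcription factor) was at 401 CPM. Vehicle replicate 5 was the highest of the 10 vehicle mice for 23.5% of the 1661 tested genes with at least 100 exonic bases opposite another gene, against 11.1% of the 10442 tested genes with none. Among the genes described here *Acaa1a*, *Acaa1b*, *Acadvl*, and *Etfdh* have such bases, *Crat* and *Hadha* have fewer, and in vehicle replicate 5 none of them lay above the third lowest place of 10. In whole liver, fewer cells of a type and less RNA per cell cannot be told apart.

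Promoter sequence from RefSeq (GRCm38.p6, 250 bases before to 50 after a gene's start) was found for 28 of the 33 genes, with 31 promoters in all. Each was searched on both strands for the direct repeat AGGTCANAGGTCA, the arrangement that PPAR-alpha with RXR binds, and for the inverted repeat AGGTCANTGACCT, the arrangement that FXR with RXR binds, where N is any base and mismatches are counted over the other 12. At most 2 mismatches to the direct repeat were found in 4 of the 31 promoters, against 3.86% of 32851 promoters, and at most 2 to the inverted repeat in 1 of 31, against 1.14%. The matched stretches are shown because they mark where such a repeat lies in 5 genes whose values are described below. Each line reads 5′ to 3′ on the strand of the gene, with the match in capitals. For *Fabp1* (chr6:71199752-71199826, plus strand) the direct repeat had 1 mismatch and began 67 bases before the gene start. For *Slc25a20* (chr9:108662134-108662162, plus strand), *Acot4* (chr12:84038306-84038378, plus strand), and *Etfa* (chr9:55512248-55512380, minus strand) it had 2 mismatches. For *Acaa1b* (chr9:119157128-119157260, minus strand) the inverted repeat had 2 mismatches and began 107 bases before the start. A match is a description of the letters and not a measured binding site.
Fabp1: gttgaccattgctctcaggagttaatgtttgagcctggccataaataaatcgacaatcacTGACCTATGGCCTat
Slc25a20: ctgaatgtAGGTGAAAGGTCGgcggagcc
Acot4: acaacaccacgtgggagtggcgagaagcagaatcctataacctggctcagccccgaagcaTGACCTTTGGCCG
Etfa: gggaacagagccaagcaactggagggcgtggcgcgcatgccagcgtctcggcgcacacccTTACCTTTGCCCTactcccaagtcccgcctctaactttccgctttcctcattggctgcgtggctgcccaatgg
Acaa1b: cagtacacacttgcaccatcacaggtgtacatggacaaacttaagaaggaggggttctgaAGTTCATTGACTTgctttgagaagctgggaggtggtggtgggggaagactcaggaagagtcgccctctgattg

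With OCA, 9 of the 33 genes fell and 0 rose, and with INT-787, 7 fell and 0 rose, although *Acot3* and *Acot4* passed as higher with INT-787 under settings given with them. The threshold for a call was an adjusted p of 0.05 in edgeR's quasi-likelihood test, adjusted by the Benjamini-Hochberg method over all 12580 genes, and all adjusted p values below come from this test unless another setting is named. For OCA the 9 falls in 33 (27.3%) stand beside 6.60% of all tested genes called in either direction and 2.45% called lower. For INT-787 the 7 falls stand beside 19.6% called in either direction and 9.48% called lower, so that the share of the 33 genes called (21.2%) was near that of all genes, whereas the calls lay in 1 direction. Between the drugs 2 of the 33 were called, both higher with INT-787, beside 5.38% of all genes in either direction and 2.19% higher. Leaving out 1 mouse at a time gave 7 to 12 calls with OCA, 4 to 8 with INT-787, and 0 to 5 between the drugs. The median log2 fold change of the 33 genes was -0.31 with OCA and -0.02 with INT-787, against 0.02 and -0.00 for all genes tested. The fold change was below 0 for 30 of 33 genes with OCA and for 19 of 33 with INT-787. The same vehicle mice served both comparisons, and *Acaa1b*, *Pex11a*, *Slc25a20*, *Crat*, *Hadhb*, and *Vnn1* were called in both, that is 66.7% of the OCA calls and 85.7% of the INT-787 calls.

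**Figure D1:**
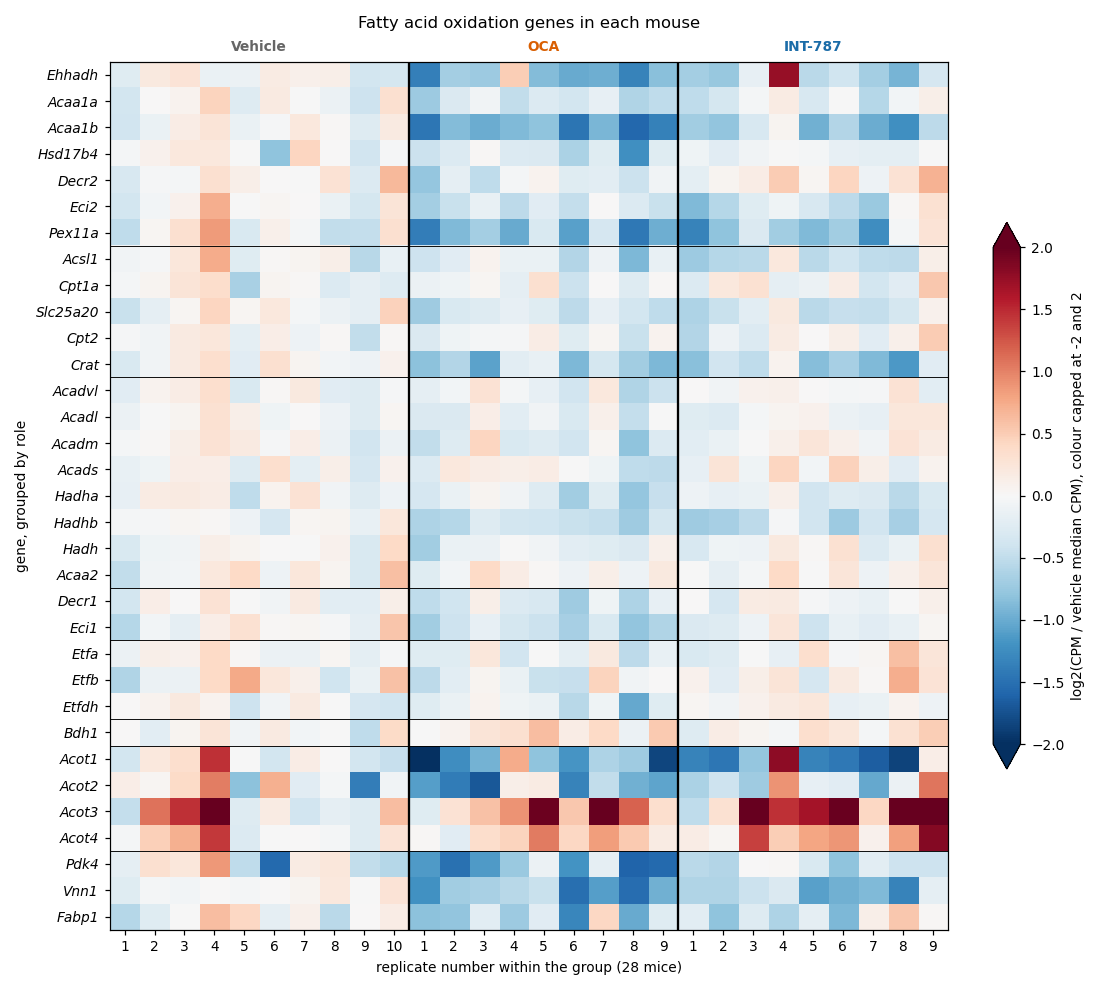
Level of each of the 33 genes (rows, grouped by role) in each of the 28 mice (columns, by replicate number), as log2 of the CPM over the vehicle median, with colours capped at -2 and 2. Most squares of the OCA mice are blue (lower than the vehicle median), vehicle replicate 4 is mostly red, and *Ehhadh* and *Acot1* stand out in replicate 4 of INT-787.

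Taken mouse by mouse, the median over the 33 genes of log2(CPM over the vehicle median) ran from -0.28 to 0.32 in vehicle mice, from -0.62 to -0.05 in OCA mice, and from -0.30 to 0.16 in INT-787 mice. Every OCA mouse lay below 0, whereas the INT-787 mice lay on both sides of it, and all 3 groups overlapped. The 2 INT-787 mice above 0 were replicates 4 and 9. Vehicle replicate 4 was the highest vehicle mouse for 19 of the 33 genes (57.6%), against 9.83% of all tested genes.

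**Figure D2:**
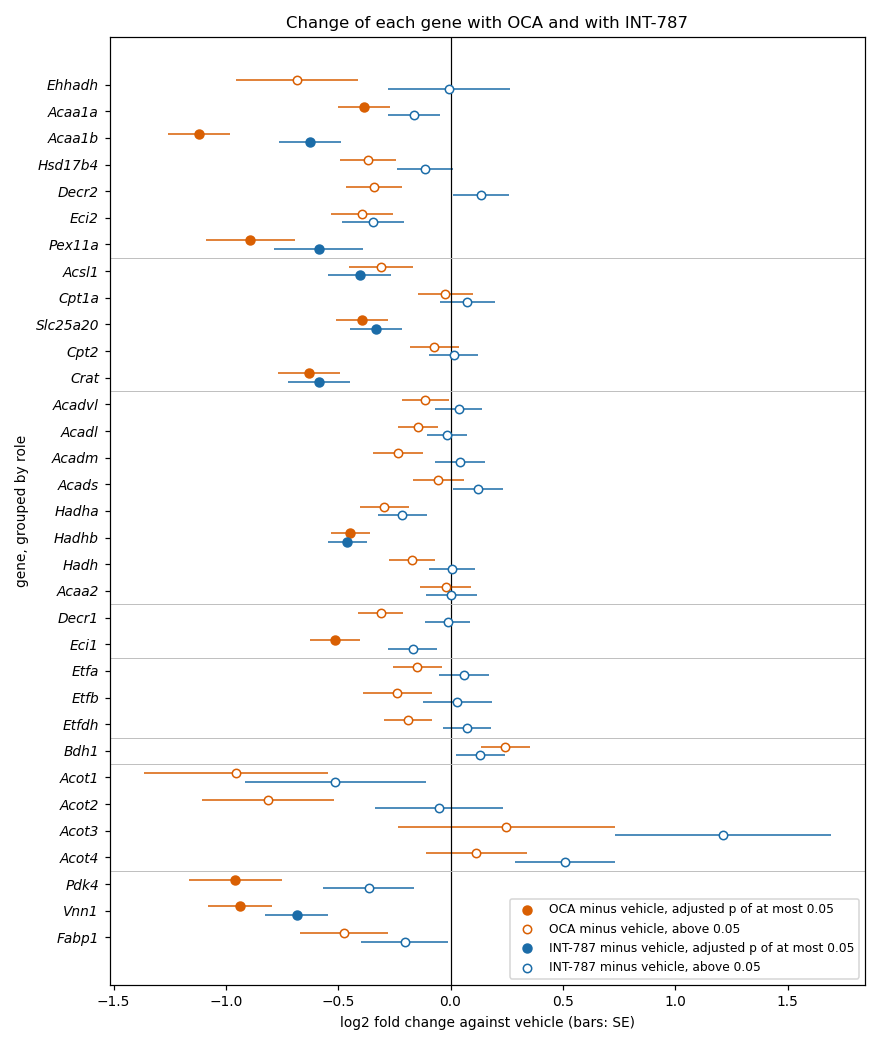
Log2 fold change against vehicle (horizontal axis, bars show the SE) of each gene with OCA (orange) and INT-787 (blue), filled where the adjusted p was at most 0.05. The 9 filled orange and 7 filled blue points all lie left of 0.

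Among the 7 peroxisomal genes, 3 fell with OCA (*Acaa1a*, *Acaa1b*, and *Pex11a*) and 2 with INT-787 (*Acaa1b* and *Pex11a*). These are 42.9% and 28.6%, against 6.60% and 19.6% of all genes called. The median log2 fold changes of the 7 genes were -0.39 and -0.16. *Acaa1b*, a thiolase that releases acetyl-CoA in the last step of each peroxisomal round, ranged from 1379 through a median of 1790 to 2134 CPM in vehicle mice, from 603 through 897 to 1022 CPM with OCA, and from 763 through 1107 to 1866 CPM with INT-787. All OCA mice lay below all vehicle mice, and 7 of 9 INT-787 mice did, the others being replicates 3 and 4. *Acaa1b* fell by 54.0% with OCA (log2 fold change -1.12, SE 0.14, adjusted p = 1.1e-06) and fell by 35.2% with INT-787 (log2 fold change -0.63, SE 0.14, adjusted p = 0.0012). Both falls kept an adjusted p of at most 0.05 in each of the 28 fits that left out a single mouse.

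Its neighbour *Acaa1a*, a second peroxisomal thiolase on the same chromosome, was at 143 ± 28.4 CPM in vehicle (SD, n = 10), 110 ± 16.1 with OCA (SD, n = 9), and 128 ± 23.2 with INT-787 (SD, n = 9). Its vehicle values ran from 107 through 142 to 194 CPM, those of OCA from 85.5 through 110 to 136 CPM, and those of INT-787 from 95.6 through 137 to 158 CPM. The groups overlapped, with 4 OCA mice and 2 INT-787 mice below the lowest vehicle mouse. *Acaa1a* fell with OCA by 0.38 on the log2 scale (SE 0.12, adjusted p = 0.039), whereas with INT-787 the value was -0.16 (SE 0.12, adjusted p = 0.35). The OCA call on *Acaa1a* was lost in 11 of the 28 fits without a single mouse (vehicle replicates 2, 3, 4, 6, 7, or 10, or OCA replicates 1, 4, 6, 8, or 9), with adjusted p from 0.054 to 0.086. It was also lost with runs of neighbouring animal numbers as a factor (adjusted p = 0.11). Reads between these thiolases are uncertain, because 28.5% of the 75-base stretches of the longest *Acaa1b* transcript also occur in *Acaa1a*.

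*Pex11a*, which encodes a membrane protein of peroxisome division, ranged from 98.0 through 139 to 250 CPM in vehicle mice, from 51.7 through 70.6 to 112 CPM with OCA, and from 54.7 through 85.2 to 167 CPM with INT-787. The groups overlapped, although 7 OCA mice and 6 INT-787 mice lay below the lowest vehicle mouse. *Pex11a* fell by 46.1% with OCA (log2 fold change -0.89, SE 0.20, adjusted p = 0.0037) and fell by 33.5% with INT-787 (log2 fold change -0.59, SE 0.20, adjusted p = 0.033). The INT-787 call was lost without vehicle replicate 3, 4, or 10 or without INT-787 replicate 1, 2, 4, 5, 6, or 7, with adjusted p from 0.052 to 0.082.

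*Decr2*, a reductase for unsaturated chains in peroxisomes, was higher with INT-787 than with OCA and was not called against vehicle with either drug. It ranged from 158 through 198 to 308 CPM in vehicle mice, from 116 through 170 to 208 CPM with OCA, and from 172 through 220 to 319 CPM with INT-787. All 9 INT-787 mice lay above the OCA median and 5 lay above the highest OCA mouse, so the drug groups still overlapped. The other peroxisomal members were *Hsd17b4*, the bifunctional enzyme with D-specificity (645 ± 138 CPM in vehicle, 500 ± 106 with OCA, 596 ± 35.6 with INT-787), and *Eci2*, an enoyl-CoA isomerase (167 ± 40.2, 127 ± 19.1, and 131 ± 35.5 CPM), where errors are SDs and n is 10, 9, and 9 mice. Neither was called: the adjusted p was 0.073 for *Hsd17b4* and 0.087 for *Eci2* with OCA, and 0.57 and 0.075 with INT-787. With OCA *Hsd17b4* passed without vehicle replicate 6 or OCA replicate 3 (adjusted p from 0.016 to 0.038), and with INT-787 *Eci2* passed without vehicle replicate 1 or INT-787 replicate 9 (adjusted p from 0.020 to 0.049).

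**Figure D3:**
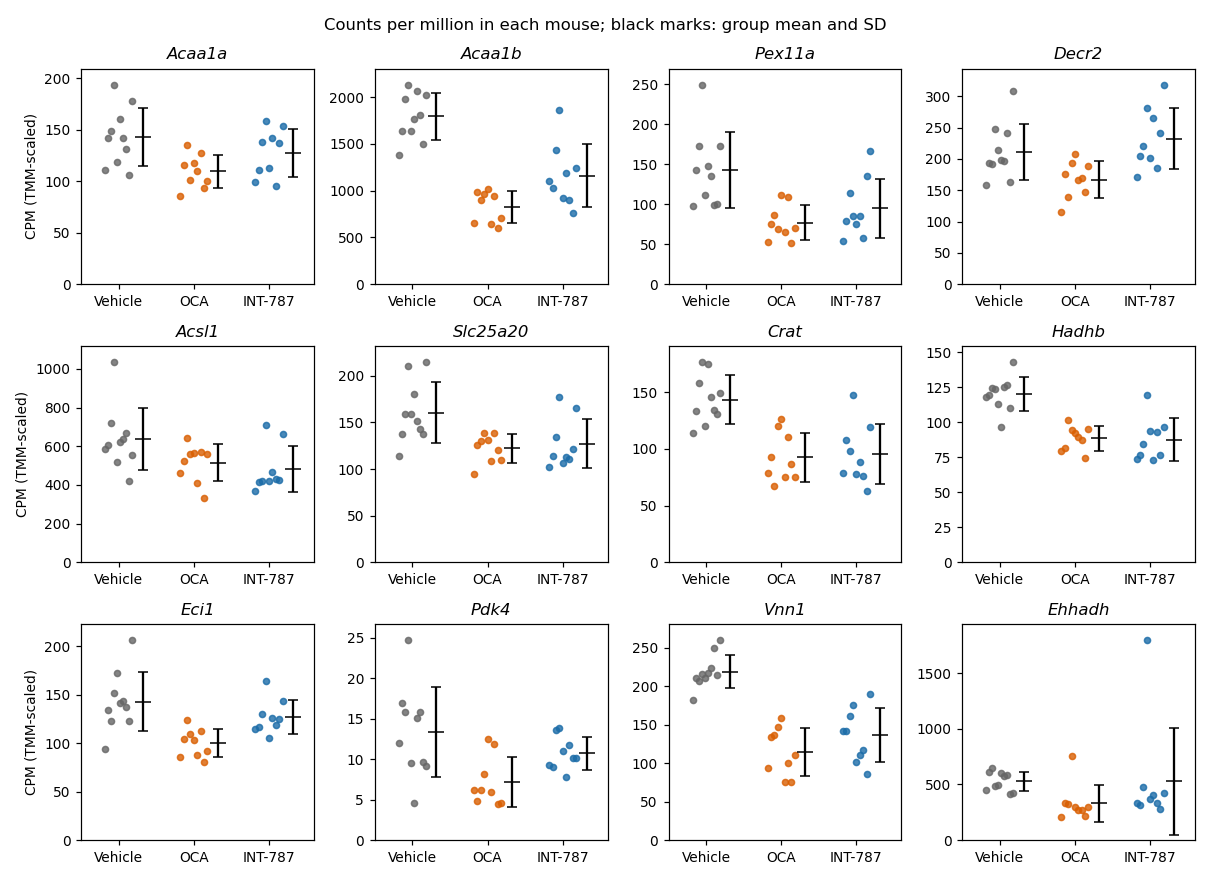
CPM (vertical axes, from 0) in each mouse (points, in replicate order within a group) of the 11 genes called in at least 1 comparison and of *Ehhadh*, with the group mean and SD in black. In *Acaa1b* and *Vnn1* the OCA points lie wholly below the vehicle points, and *Ehhadh* has a single INT-787 mouse near 1793 CPM.

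*Ehhadh*, the bifunctional enzyme with L-specificity of the peroxisomal route, was set by single mice. It ranged from 417 through 537 to 646 CPM in vehicle mice, from 209 through 295 to 754 CPM with OCA, and from 281 through 370 to 1793 CPM with INT-787. There were 8 of 9 OCA mice and 6 of 9 INT-787 mice below the lowest vehicle mouse, while replicate 4 of each drug group lay above the highest vehicle mouse. Over all mice the log2 fold change was -0.68 with OCA (SE 0.27, adjusted p = 0.15) and -0.01 with INT-787 (SE 0.27, adjusted p = 0.99). With runs of neighbouring animal numbers as a factor these were -0.85 (adjusted p = 0.0072) and -0.31 (adjusted p = 0.25). Without INT-787 replicate 4 *Ehhadh* was lower with INT-787 by a log2 fold change of -0.52 (SE 0.18, adjusted p = 0.035) and with OCA by -0.68 (adjusted p = 0.010). That mouse was already known to be high for such genes, so the values without it are a description. Without OCA replicate 4 the OCA fold change was -0.94 (adjusted p = 0.022). Without both mice, a choice made after their values were seen, it was -0.94 with OCA (adjusted p = 2.4e-06) and -0.52 with INT-787 (adjusted p = 0.0018).

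Among the 5 genes of fatty acid activation and the carnitine shuttle, 2 fell with OCA (*Slc25a20* and *Crat*) and 3 with INT-787 (*Acsl1*, *Slc25a20*, and *Crat*). *Crat*, carnitine acetyltransferase, which moves short acyl groups onto carnitine, ranged from 114 through 140 to 176 CPM in vehicle mice, from 67.0 through 86.6 to 127 CPM with OCA, and from 63.2 through 88.8 to 148 CPM with INT-787. In each drug group 7 mice lay below the lowest vehicle mouse. *Crat* fell by 35.3% with OCA (log2 fold change -0.63, SE 0.14, adjusted p = 0.0029) and fell by 33.3% with INT-787 (log2 fold change -0.58, SE 0.14, adjusted p = 0.0024), and both calls held in each of the 28 fits without a single mouse.

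*Slc25a20*, the carrier that brings acylcarnitines into mitochondria, ranged from 114 through 155 to 214 CPM in vehicle mice, from 94.6 through 126 to 139 CPM with OCA, and from 102 through 114 to 177 CPM with INT-787. All 9 OCA mice lay below the vehicle median, and the groups overlapped. It fell by 23.8% with OCA (log2 fold change -0.39, SE 0.12, adjusted p = 0.035) and fell by 20.5% with INT-787 (log2 fold change -0.33, SE 0.12, adjusted p = 0.041). The OCA call was lost without vehicle replicate 4, 6, or 10 or OCA replicate 1, 6, or 9 (adjusted p from 0.056 to 0.076). The INT-787 call was lost without vehicle replicate 3, 4, 5, 6, or 10 or INT-787 replicate 1, 2, 3, 5, 6, 7, or 8 (adjusted p from 0.051 to 0.088).

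*Acsl1*, which joins long-chain fatty acids to coenzyme A, ranged from 420 through 615 to 1034 CPM in vehicle mice, from 332 through 558 to 645 CPM with OCA, and from 371 through 427 to 709 CPM with INT-787. All INT-787 mice except replicates 4 and 9 lay below the vehicle median, and the groups overlapped. It fell by 24.5% with INT-787 (log2 fold change -0.40, SE 0.14, adjusted p = 0.041), a call that was lost without vehicle replicate 3, 4, 6, 7, or 8 or INT-787 replicate 1, 2, 3, 5, 6, 7, or 8 (adjusted p from 0.050 to 0.10). With OCA the log2 fold change was -0.31 (SE 0.14, adjusted p = 0.23). The INT-787 call was also lost with runs of neighbouring animal numbers as a factor (adjusted p = 0.11). *Cpt1a*, the outer membrane transferase at which malonyl-CoA controls entry to oxidation, was at 711 ± 137 CPM in vehicle, 700 ± 103 with OCA, and 748 ± 165 with INT-787 (SD, n = 10, 9, and 9), with adjusted p of 0.96 and 0.73. *Cpt2*, its inner membrane partner, was at 149 ± 20.2, 142 ± 18.1, and 150 ± 32.5 CPM, with adjusted p of 0.81 and 0.96.

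Within the mitochondrial oxidation spiral, 1 of 8 genes fell with each drug, and it was *Hadhb* in both cases. That is 12.5%, against 6.60% of all genes called with OCA and 19.6% with INT-787. *Hadhb* encodes the thiolase subunit of the trifunctional protein of long chains, and its values ran from 96.5 through 122 to 143 CPM in vehicle mice, from 74.3 through 89.1 to 102 CPM with OCA, and from 73.2 through 84.8 to 119 CPM with INT-787. All mice of both drug groups lay below the vehicle median, and the groups overlapped. It fell by 26.6% with OCA (log2 fold change -0.45, SE 0.09, adjusted p = 0.00073) and fell by 27.2% with INT-787 (log2 fold change -0.46, SE 0.09, adjusted p = 0.00023). Both calls held in each of the 28 fits without a single mouse.

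*Hadha*, which encodes the other subunit of that protein and lies head to head with *Hadhb* on the opposite strand, was at 603 ± 97.7 CPM in vehicle, 492 ± 90.9 with OCA, and 520 ± 67.3 with INT-787 (SD, n = 10, 9, and 9). Its log2 fold changes of -0.29 and -0.22 did not pass (adjusted p = 0.11 and 0.17), and without vehicle replicate 5 the OCA value was -0.34 (adjusted p = 0.047). The acyl-CoA dehydrogenases, which take the first step for chains of decreasing length, had log2 fold changes of -0.11 (*Acadvl*), -0.15 (*Acadl*), -0.23 (*Acadm*), and -0.05 (*Acads*) with OCA. With INT-787 those values were 0.04, -0.02, 0.04, and 0.12. None of the 4 was called against vehicle with either drug, and for *Acadm* leaving out OCA replicate 3 gave -0.34 with OCA (adjusted p = 0.032). *Hadh*, the dehydrogenase of medium and short chains, had values of -0.17 and 0.01, and *Acaa2*, the mitochondrial thiolase, -0.02 and 0.00.

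Of the 2 accessory enzymes for unsaturated chains in mitochondria, *Eci1* fell with OCA. *Eci1*, an isomerase that moves double bonds, ranged from 93.8 through 140 to 206 CPM in vehicle mice, from 80.8 through 103 to 124 CPM with OCA, and from 105 through 125 to 164 CPM with INT-787. All 9 OCA mice lay below the vehicle median, and the groups overlapped. It fell by 30.0% with OCA (log2 fold change -0.51, SE 0.11, adjusted p = 0.0023) in each of the 28 fits without a single mouse, and with INT-787 it stood at -0.17 (SE 0.11, adjusted p = 0.30). *Decr1*, the matching reductase, was at 312 ± 43.5 CPM in vehicle, 251 ± 46.5 with OCA, and 309 ± 33.7 with INT-787, and the OCA value of -0.31 (SE 0.10) had an adjusted p of 0.057. That value passed without vehicle replicate 1 or 8 or OCA replicate 3 or 7 (adjusted p from 0.015 to 0.046).

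Neither drug group had a call among the 3 electron transfer genes, which pass electrons from the dehydrogenases to the respiratory chain. With OCA the log2 fold changes were -0.15 (*Etfa*), -0.24 (*Etfb*), and -0.19 (*Etfdh*), and with INT-787 they were 0.06, 0.03, and 0.07. For *Etfb*, 66.3% of the 75-base stretches of its longest transcript also occur in the overlapping gene model Gm45233, so its reads may be split. *Bdh1*, which interconverts the ketone bodies acetoacetate and 3-hydroxybutyrate, was at 234 ± 39.2 CPM in vehicle, 277 ± 47.0 with OCA, and 256 ± 40.3 with INT-787. Its log2 fold change was 0.24 with OCA (SE 0.11, adjusted p = 0.22) and 0.13 with INT-787 (SE 0.11, adjusted p = 0.44).

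The 4 acyl-CoA thioesterases, which split acyl-CoA back into fatty acid and coenzyme A, varied widely between mice of a group and held no call in any comparison over all mice. *Acot1*, the cytosolic member, ranged from 14.5 through 20.1 to 55.2 CPM in vehicle mice, from 4.84 through 10.4 to 33.5 CPM with OCA, and from 5.58 through 7.93 to 69.1 CPM with INT-787. In all, 8 of 9 OCA mice and 7 of 9 INT-787 mice lay below the lowest vehicle mouse, and in each of the 3 groups replicate 4 was the highest. The log2 fold changes of *Acot1* were -0.95 with OCA (SE 0.41, adjusted p = 0.19) and -0.51 with INT-787 (SE 0.40, adjusted p = 0.41). Without INT-787 replicate 4 the INT-787 value was -1.26 (adjusted p = 0.0046), and without OCA replicate 4 the OCA value was -1.30 (adjusted p = 0.049). Replicate 4 of INT-787 was already known to be high for such genes, so the value without it is a description. *Acot2*, the mitochondrial member, had values of -0.81 and -0.05 (adjusted p = 0.099 and 0.93), and without OCA replicate 5 the OCA value was -0.97 (adjusted p = 0.046). Counting among these genes is uncertain, because 20.5% of the 75-base stretches of *Acot2* also occur in *Acot1*, and 10.6% of those of *Acot3* in the gene model Gm49366.

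The peroxisomal members *Acot3* and *Acot4* had fold changes above 0. *Acot3* ranged from 5.88 through 8.22 to 58.9 CPM in vehicle mice, from 6.93 through 12.4 to 49.0 CPM with OCA, and from 5.78 through 26.2 to 105 CPM with INT-787. *Acot4* ranged from 42.9 through 52.0 to 138 CPM in vehicle mice, from 44.4 through 69.4 to 107 CPM with OCA, and from 53.4 through 90.1 to 185 CPM with INT-787. In both genes the groups overlapped, although all 9 INT-787 mice lay above the vehicle median for *Acot4*, the highest vehicle mouse was replicate 4, and the highest INT-787 mouse was replicate 9. With INT-787 the log2 change stood at 1.21 for *Acot3* (SE 0.48, adjusted p = 0.072) and 0.51 for *Acot4* (SE 0.22, adjusted p = 0.10). Without vehicle replicate 4 the *Acot4* value was 0.70 (adjusted p = 0.014). For *Acot3* leaving out vehicle replicate 4 or INT-787 replicate 1 or 2 gave values from 1.34 to 1.75 (adjusted p from 0.0058 to 0.048). With OCA the values were 0.25 and 0.12 (adjusted p = 0.87 and 0.86). With runs of neighbouring animal numbers as a factor both passed with INT-787 (1.40, adjusted p = 0.010, and 0.61, adjusted p = 0.016), in a fit to which vehicle replicate 4, alone in its run, adds nothing.

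Among the 3 other genes known to respond to PPAR-alpha, *Vnn1* fell with both drugs and *Pdk4* with OCA. *Vnn1*, pantetheinase, which feeds the recycling of coenzyme A precursors, ranged from 182 through 216 to 260 CPM in vehicle mice, from 75.2 through 111 to 159 CPM with OCA, and from 85.9 through 142 to 190 CPM with INT-787. All OCA mice and 8 of 9 INT-787 mice lay below the lowest vehicle mouse. *Vnn1* fell by 47.7% with OCA (log2 fold change -0.94, SE 0.14, adjusted p = 2.9e-05) and fell by 37.8% with INT-787 (log2 fold change -0.69, SE 0.14, adjusted p = 0.00059), in each of the 28 fits without a single mouse.

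*Pdk4*, the kinase that shuts off pyruvate oxidation when fat is burnt, ranged from 4.60 through 13.5 to 24.7 CPM in vehicle mice, from 4.47 through 6.19 to 12.5 CPM with OCA, and from 7.79 through 10.2 to 13.8 CPM with INT-787. All 9 OCA mice lay below the vehicle median, and the groups overlapped. It fell by 48.5% with OCA (log2 fold change -0.96, SE 0.21, adjusted p = 0.0027), and with INT-787 it stood at -0.36 (SE 0.20, adjusted p = 0.22). *Fabp1*, the liver fatty acid binding protein, was at 2379 ± 628 CPM in vehicle, 1712 ± 664 with OCA, and 2064 ± 674 with INT-787 (SD, n = 10, 9, and 9), with adjusted p of 0.17 and 0.51. Without OCA replicate 7 the *Fabp1* fold change with OCA was -0.63 (adjusted p = 0.036).

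INT-787 and OCA were then compared directly, as 1 pair of related compounds at the same dose and time. Levels were higher with INT-787 than with OCA for *Acaa1b* (log2 fold change 0.49, SE 0.14, 95% interval 0.20 to 0.78, adjusted p = 0.032) and *Decr2* (log2 fold change 0.48, SE 0.13, 95% interval 0.21 to 0.74, adjusted p = 0.024). Which difference between the compounds this goes with was not tested. In percent, *Acaa1b* was 40.8% and *Decr2* 39.0% higher with INT-787. The *Acaa1b* call was lost without OCA replicate 1, 6, 8, or 9 or INT-787 replicate 3, 4, or 6 (adjusted p from 0.050 to 0.082), and the *Decr2* call without OCA replicate 1 or 8 or INT-787 replicate 9 (adjusted p from 0.051 to 0.053). Of the 33 fold changes of INT-787 over OCA, 30 lay above 0, with a median of 0.25 against -0.01 for all genes tested.

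The genes called with a single drug against vehicle were not shown to differ between the drugs. *Eci1* was higher with INT-787 than with OCA by 0.35 (log2, 95% interval 0.12 to 0.58, adjusted p = 0.064), *Pdk4* by 0.59 (0.16 to 1.03, adjusted p = 0.094), and *Acaa1a* by 0.22 (-0.02 to 0.46, adjusted p = 0.32), whereas *Acsl1* differed by -0.10 (-0.39 to 0.20, adjusted p = 0.80). The difference passed for *Eci1* without vehicle replicate 1 or 10, OCA replicate 3, or INT-787 replicate 5 (adjusted p from 0.031 to 0.050), and for *Pdk4* without OCA replicate 5 or 7 (adjusted p of 0.034 in both). It also passed without OCA replicate 3 for *Decr1* (0.36, adjusted p = 0.021) and *Acadm* (0.38, adjusted p = 0.016). The narrowest interval among the genes that fell with both drugs was that of *Hadhb*, whose difference was -0.01 (-0.19 to 0.17). For *Crat* the difference was 0.04 (-0.24 to 0.33), for *Slc25a20* 0.06 (-0.18 to 0.31), for *Vnn1* 0.25 (-0.04 to 0.55), and for *Pex11a* 0.30 (-0.11 to 0.72). These intervals do not show that the compounds act alike on those genes. *Ehhadh* was higher with INT-787 by 0.68 (0.11 to 1.25, adjusted p = 0.16), without INT-787 replicate 4 by 0.16 (adjusted p = 0.70), and without OCA replicate 4 by 0.93 (adjusted p = 0.030).

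INT-787 replicate 4 was looked at because earlier results had already shown it to stand apart for such genes, so its values are a description. It was the highest of the 9 INT-787 mice for 13 of the 33 genes (39.4%), against 1510 of all 12580 genes tested. Replicate 9 was the highest for 12 of the 33 genes (36.4%), and its ratio to the median of the others was above 1.5 for 9 of the 33 (27.3%). Measured against the median of the other 8 INT-787 mice, the median ratio of replicate 4 over the 33 genes was 1.25, against 1.00 for all tested genes. Ratios above 1.5 were found for 7 of the 33 genes (21.2%) and for 3.47% of all tested genes. *Ehhadh* was at 1793 CPM in that mouse, 5.08 times the median of the others (353 CPM, range 281 to 481). *Acot1* was at 69.1 CPM, 8.97 times the median of the others (7.70 CPM, range 5.58 to 21.9). The remaining ratios above 1.5 belonged to *Acot2* (2.32), *Crat* (1.76), *Acaa1b* (1.74), *Acsl1* (1.67), and *Slc25a20* (1.56). The excess did not extend to all 33 genes: *Fabp1* (0.75), *Acot3* (0.77), *Acot4* (0.80), *Bdh1* (0.85), *Cpt1a* (0.87), and *Etfa* (0.88) lay below the median of the other 8 mice.

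**Figure D4:**
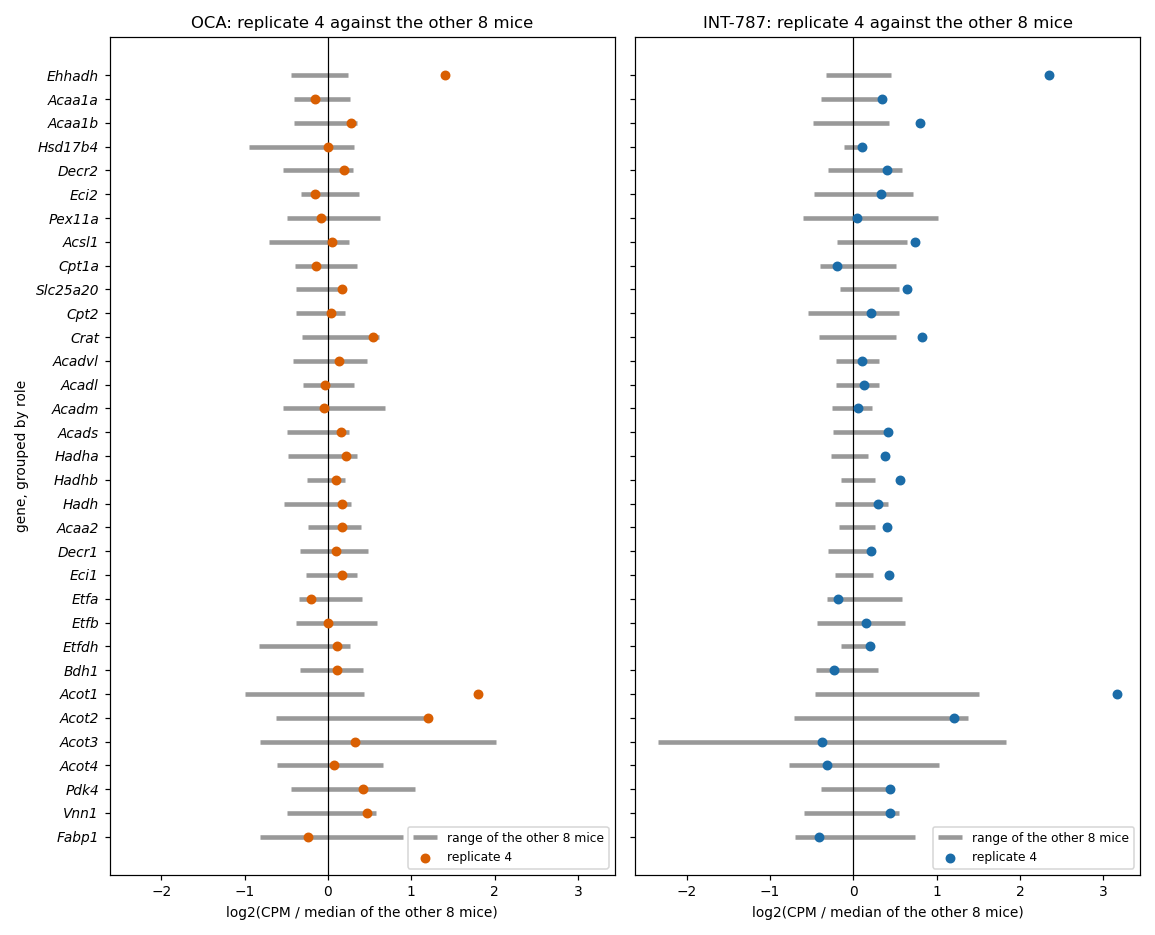
Replicate 4 of OCA (left) and of INT-787 (right) for each of the 33 genes, as log2 of its CPM over the median of the other 8 mice of its group (horizontal axis), with the range of those 8 mice as a grey bar. *Ehhadh* and *Acot1* lie outside the bar in both panels, and most other points of OCA replicate 4 lie inside it.

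OCA replicate 4 stood out in the same genes, an observation made after the values were seen. It was at 754 CPM for *Ehhadh*, 2.66 times the median of the other 8 OCA mice (range 209 to 335), and at 33.5 CPM for *Acot1*, 3.47 times their median. Outside the 33 genes, *Cyp8b1*, a bile acid hydroxylase repressed after FXR activation, was at 44.1 CPM in INT-787 replicate 4 against 0.423 to 3.67 CPM in the other 8 INT-787 mice, and at 29.3 CPM in OCA replicate 4 against 1.05 to 7.76 CPM. The fatty acid omega-hydroxylases *Cyp4a10* (1419 and 542 CPM) and *Cyp4a14* (2033 and 775 CPM) were likewise the highest of their group in replicate 4 of INT-787 and OCA. By contrast *Cyp7a1*, which like *Cyp8b1* fell with both drugs, lay within the range of the other mice in both. It was at 18.1 CPM in INT-787 replicate 4 (others 3.72 to 22.1) and 11.2 CPM in OCA replicate 4 (others 3.90 to 17.3). Genes that FXR agonists raise lay within the range of the other mice in INT-787 replicate 4: *Abcb11*, the bile salt export pump, was at 1062 CPM (others 925 to 1586), *Nr0b2*, which encodes the repressor SHP, at 61.0 CPM (others 41.1 to 88.1), *Slc51b*, a bile acid exporter, at 18.8 CPM (others 14.5 to 31.1), and *Slc22a7*, an organic anion transporter, at 23.6 CPM (others 17.1 to 40.5). The first 3 lay below the median of the others and *Slc22a7* above it. Genes of fasting and feeding were looked at in the same mouse. *G6pc* (109 CPM) and *Me1* (213 CPM) were the highest of the 9 mice, while *Pck1* (1730 CPM) and *Fasn* (3018 CPM) lay within the range of the others. The labels give no reason for these values. Replicate 4 of OCA and of INT-787 carry neighbouring animal numbers in the labels, and the correlation of their deviations from the group means was 0.30. Vehicle replicate 5 belongs to the same run of numbers, and vehicle replicate 4 to another. Vehicle replicate 5 had correlations of -0.008 with OCA replicate 4 and 0.08 with INT-787 replicate 4. Its *Ehhadh* level was 496 CPM, against a vehicle median of 537 CPM. What neighbouring numbers stand for is not given in the sources used here, and their part in these values was not tested.

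Without INT-787 replicate 4, 8 of the 33 genes fell with INT-787 in place of 7: *Ehhadh* and *Acot1* were gained and *Pex11a* was lost (adjusted p = 0.052). The genes gained were those in which this mouse stood furthest above the median of the other INT-787 mice (5.08 and 8.97 times). It was already known to be high for such genes, so the calls and fold changes without it are a description and not a separate test. In that fit *Hadhb* was at -0.52, *Vnn1* at -0.74, *Acaa1b* at -0.74, *Crat* at -0.69, *Acsl1* at -0.49, and *Slc25a20* at -0.40 on the log2 scale. With OCA 10 genes fell in that fit, and between the drugs only *Decr2* was called (adjusted p = 0.047). Leaving out vehicle replicates 5 and 6 and INT-787 replicate 4 together, a choice made after seeing the data, gave 7 calls with INT-787 and 10 with OCA relative to vehicle, and 0 between the drugs. Calls over all genes in these fits are not given here, so a shift particular to the 33 genes cannot be told from these counts.

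Levels were compared between genes per kilobase of exon, taking all annotated exons of a gene together. That length can exceed the longest transcript (6595 against 4388 bases for *Hadhb*), so the order of genes depends in part on the annotation. In vehicle mice *Fabp1* was highest at 4302 ± 1136 CPM per kb (SD, n = 10), followed by *Acaa1b* at 914 ± 130 and *Acaa2* at 641 ± 146. *Hsd17b4* (189 ± 40.6) and *Ehhadh* (178 ± 28.3) came next and lay within each other's spread, followed by *Acadvl* (142.8 ± 21.96), *Etfa* (125 ± 15.4), and *Acadl* (121 ± 13.1), whose spreads overlapped. The lowest were *Acot4* (9.73 ± 4.32), *Acot2* (6.93 ± 3.08), *Acot1* (5.81 ± 3.06), *Acot3* (4.47 ± 4.73), and *Pdk4* (3.80 ± 1.59), where each spread overlapped that of the next gene in order. The genes that fell with both drugs thus included an abundant transcript (*Acaa1b*) and scarcer ones such as *Slc25a20* (33.2 ± 6.69), *Crat* (26.7 ± 3.95), and *Hadhb* (18.2 ± 1.84).

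The remaining genes of these pathways were taken from lists, 114 genes of which 111 were tested. With OCA 14 fell and 7 rose (18.9% called), beside 2.45% of all genes called lower and 4.15% called higher. The median log2 fold change was -0.09. With INT-787 10 fell and 29 rose (35.1% called), beside 9.48% of all genes called lower and 10.2% called higher. The median was 0.07. So among the remaining pathway genes falls outnumbered rises with OCA, and rises outnumbered falls with INT-787. Of the 33 genes 0 rose with either drug in the fit to all mice.

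**Figure D5:**
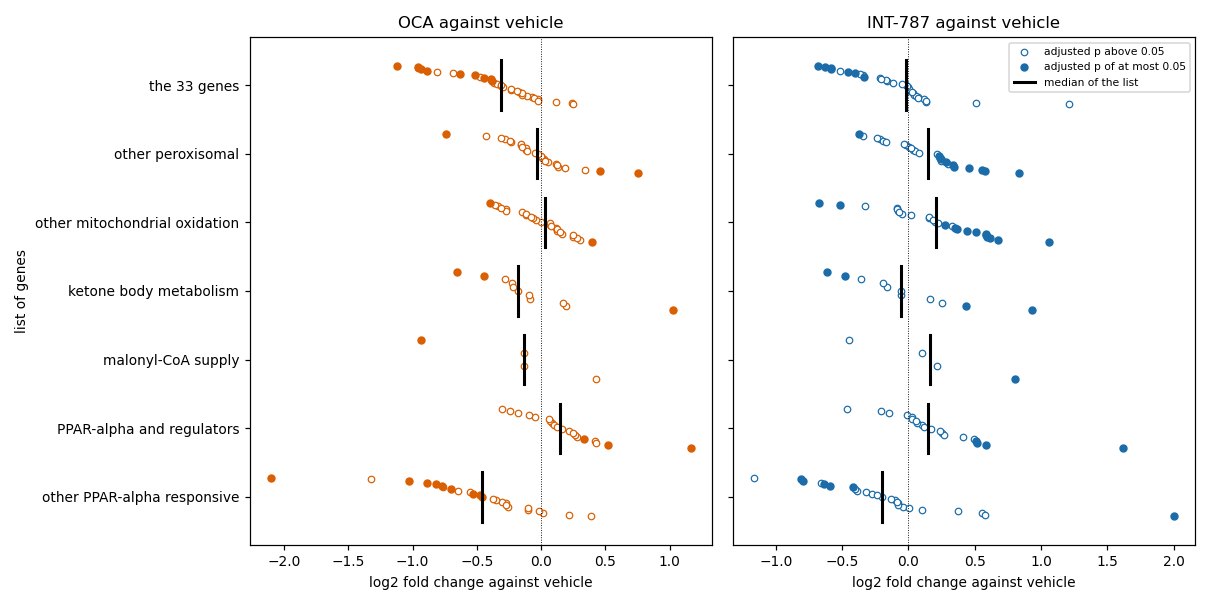
Log2 fold change against vehicle (horizontal axis) of every tested gene of the 33 and of 6 further lists (rows), with OCA left and INT-787 right, filled where the adjusted p was at most 0.05, and the list median as a black line. The 33 genes have no filled point right of 0, and the lists of other peroxisomal and other mitochondrial genes have 10 and 11 with INT-787.

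Of 26 other peroxisomal genes 10 rose and 1 fell with INT-787 (42.3%, against 19.6% of all genes called), and 2 rose and 1 fell with OCA (11.5%, against 6.60%). *Nudt19*, a hydrolase of coenzyme A, rose with both (0.75 and 0.84, adjusted p = 2.9e-05 and 1.6e-06), as did *Amacr*, a racemase of branched chains and bile acid precursors (0.46 and 0.56, adjusted p = 0.0020 and 7.3e-05). Of 26 tested other mitochondrial genes 11 rose and 2 fell with INT-787 (against 19.6% of all genes called), and 1 rose and 1 fell with OCA (7.69%, near the 6.60% of all genes). *Acad12* (1.06), *Acad10* (0.67), and *Acot13* (0.59) rose with INT-787 and were also higher than with OCA (adjusted p = 6.3e-06, 0.011, and 0.0054). *Acsl4*, an acyl-CoA synthetase, fell with INT-787 (-0.67) and OCA (-0.40).

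In ketone body metabolism 2 of 11 genes rose and 2 fell with INT-787 (36.4%, against 19.6% of all genes called), and 1 rose and 2 fell with OCA (27.3%, against 6.60%). *Bdh2*, a dehydrogenase related to *Bdh1*, rose with OCA (1.03) and INT-787 (0.94), and the transporters *Slc16a6* (-0.65 and -0.61) and *Slc16a1* (-0.44 and -0.48) fell. *Oxct1*, the enzyme of ketone body use, was lower with INT-787 than with OCA by 0.55 on the log2 scale (adjusted p = 0.029). Of the 4 malonyl-CoA genes, *Acacb*, the carboxylase that restrains *Cpt1a*, fell with OCA (-0.93, adjusted p = 0.021), and *Acly*, which makes cytosolic acetyl-CoA, rose with INT-787 (0.80, adjusted p = 0.0044).

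Among 20 genes of PPAR-alpha and its regulators 3 rose with OCA (against 6.60% of all genes called) and 4 with INT-787 (a share near the 19.6% of all genes called), and 0 fell. *Ppara* itself was at 104 CPM in vehicle, 110 with OCA, and 124 with INT-787, with adjusted p of 0.92 and 0.51, and *Nr1h4*, which encodes FXR, was at 115, 102, and 99.9 CPM, with adjusted p of 0.44 and 0.22. *Nr0b2* rose with both drugs (1.17 and 1.62), as did *Klf15* (0.52 and 0.51) and *Creb3l3* (0.33 and 0.51), both transcription factors of the fasted liver. *Ppargc1a*, a coactivator of PPAR-alpha, rose with INT-787 (0.58, adjusted p = 0.0091) and was at 0.42 with OCA (adjusted p = 0.13). Of 25 tested further PPAR-alpha responsive genes 9 fell with OCA and 0 rose (against 6.60% of all genes called), and 5 fell and 1 rose with INT-787 (a share near the 19.6% of all genes). *Aldh3a2*, a fatty aldehyde dehydrogenase, fell with both (-0.89 and -0.42), as did *Me1*, malic enzyme (-1.03 and -0.64). *Cyp4a12a* fell with OCA (-2.10, adjusted p = 0.035) and *Cyp4a12b* rose with INT-787 (2.00, adjusted p = 0.0090).

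Markers of other liver cells are set here beside the 9.48% of all genes called lower with INT-787 and the 2.45% called lower with OCA. Of 8 stellate cell markers 5 fell with INT-787 (among them the collagen genes *Col1a1*, *Col1a2*, and *Col3a1*, with log2 fold changes of -1.25, -1.11, and -1.28) and 0 with OCA, and their summed level ranged from 1392 to 2581 CPM in vehicle mice, from 1291 to 3461 CPM with OCA, and from 501 to 1269 CPM with INT-787. Of 8 macrophage markers 4 fell with INT-787 and 0 with OCA, with summed levels from 685 to 967, from 525.98 to 1172, and from 424 to 881 CPM. Of 7 hepatocyte markers that were tested, 2 rose with each drug, *Alb* and *Ass1*, a urea cycle enzyme. None of these lists had a marker at 0 in all mice of a group. Of 6 cholangiocyte markers 2 fell with INT-787, as did 2 of 6 endothelial markers and 1 of 5 tested leukocyte markers, and 0 of each with OCA. The fat cell markers *Adipoq* and *Lep* were at 0 in all mice, and *Cfd* fell with both drugs. The part of these shifts in the falls described above was not tested.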

How the data were processed

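Livers of 28 mice were sequenced, 1 library a mouse, and each label names a separate mouse. The deposited file holds raw read counts per Ensembl gene, which the authors made by aligning reads with STAR to GRCm38 (mm10); the counting program and its strand setting were not given in the sources used here. The 33 genes and all lists were chosen with earlier results of these data known. Genes passing filterByExpr over the 3 groups were tested with edgeR 4.0.16 (R 4.3.3): TMM scaling, 1 quasi-likelihood fit to all mice, and Benjamini-Hochberg adjustment over 12580 genes, called at 0.05. Intervals are 95% t intervals of the fit. The genes named outside the 33 are the up to 4 called genes with the largest fold change of each list, with *Ppara*, *Nr1h4*, and genes of FXR, fasting, and feeding response for INT-787 replicate 4. Alternatives used DESeq2 1.42.0, limma 3.58.1 (voom), other scalings, filters, and thresholds, a replicate block, and leaving out mice. Total counts ran from 1009593 to 22421506 per mouse, so low genes are least precise in the smallest library. The scripts were tested on simulated data. Genes encoded by mitochondrial DNA were not analysed here, and some genes that the naming rule gives are not reported here.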

Additional observations from a re-analysis of the deposited data

Results flagged for a closer look

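In 99 combinations of gene and group, 13 had a mouse whose gap to the next was past Dixon's critical value. About 1 in 20 groups of independent, normally distributed values would pass it. The genes were measured in the same mice, so the 13 are not independent and are not to be set against that rate. Vehicle replicate 4 was the high mouse in 7 of the 13: *Eci2* (266 CPM), *Pex11a* (250 CPM), *Acsl1* (1034 CPM), *Etfa* (297 CPM), *Acot1* (55.2 CPM), *Acot3* (58.9 CPM), and *Acot4* (138 CPM). INT-787 replicate 4 was far above the others for *Ehhadh* (1793 CPM) and *Acot1* (69.1 CPM), and OCA replicate 4 for the same genes (754 and 33.5 CPM). INT-787 replicate 4 was already known to stand apart for such genes, so its flags are a description. The remaining high mice were INT-787 replicate 8 for *Etfb* (68.6 CPM) and OCA replicate 7 for *Fabp1* (3137 CPM).

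The changes with the 2 drugs differed for *Acaa1b* (0.49 on the log2 scale, INT-787 over OCA) and *Decr2* (0.48), by the direct contrast of edgeR's quasi-likelihood test.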

How the results depend on the processing

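No fold change of the 33 genes that was called changed sign under any alternative. A minimum of 1 on the absolute log2 scale left 0 calls for INT-787 against vehicle, 1 for OCA against vehicle, and 0 for INT-787 against OCA. An adjusted p of at most 0.01 left 4 calls for INT-787 against vehicle and 0 for INT-787 against OCA. The direct comparison gave 4 calls with DESeq2, and 0 without vehicle replicates 5 and 6 and INT-787 replicate 4, a choice made after seeing the data. Leaving out single mice gave 4 to 8 calls for INT-787 against vehicle, 7 to 12 for OCA against vehicle, and 0 to 5 for INT-787 against OCA. Calls over all genes are not given beside the counts of these fits, nor beside those with a replicate block or animal numbers below. Whether the counts moved more than those of all genes therefore cannot be told. The cause of these differences was not tested. With upper-quartile scaling, 25 of 33 fold changes with INT-787 lay below 0, and that scaling moved the median of all genes by -0.06, as it did the 33 genes (from -0.02 to -0.08).

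With the replicate block the calls were 7, 12, and 5 in the same order. Over 27 same-numbered pairs the correlation of deviations ran from -0.24 to 0.43 and exceeded 0.1 in 11, and 9 of 28 mice correlated best with their own number, so the numbers were not taken to pair the mice. By runs of neighbouring animal numbers in the labels, 25 pairs had a median correlation of 0.11, with 13 over 0.1 and 3 under -0.1. That factor gave 8, 9, and 2 calls: with INT-787 *Acot3* and *Acot4* passed as higher and *Acsl1* was lost, and with OCA *Ehhadh* passed as lower (-0.85, adjusted p = 0.0072) and *Acaa1a* was lost (adjusted p = 0.11). Vehicle replicate 4 and OCA replicate 9 are alone in their runs and add nothing to that fit. Small libraries limit the scarce genes most: at least 10 counts in every mouse left 32 of the 33 genes.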
